A study of Mus musculus with 9 samples.

Results

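Inflammasomes are cytosolic protein platforms through which myeloid cells turn the detection of a microbe or of damage into secretion of interleukin-1 family cytokines and into lytic cell death. Levels of 10 mouse genes of this pathway were followed in splenic monocytes, chosen by symbol out of the 46072 rows of each deposited table: the sensors Aim2, Nlrp3, Nlrp1b and Nlrc4, the adaptor Pycard, the caspases Casp1 and Casp4, the pore protein Gsdmd, and the cytokines Il1b and Il18. Each symbol had 1 row, and all 10 genes were above 0 in every library. Values of the contrasts below singled out Aim2 and Pycard, since the study listed Aim2 among inhibitors picked on these libraries, and Pycard and Aim2 had already been seen to differ in an earlier reading of the same data. Both are therefore described without a test, and the other 8 genes carry the tests.

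The libraries came from female C57BL/6 mice, 8 to 10 weeks old by the study's methods, in 3 groups of 3 libraries. Con mice received water by oral gavage for 6 days. Van mice received 2 mg of vancomycin per mouse per day, a glycopeptide antibiotic that acts mainly in the gut lumen when swallowed, as 2 gavages of 1 mg for the same 6 days. VanLip mice received that vancomycin and also L654, a bacterial serine-glycine lipid that is a TLR2 ligand, injected behind the eye on days 7, 9 and 11. All mice rested without antibiotic, for 6 to 8 days by the labels and 8 days by the study's text on these libraries, and no group received L654 without vancomycin. The cells were enriched by magnetic removal of other cell types, were not stimulated in culture, and polyadenylated RNA was sequenced, so the values are transcript levels and show neither processing of the proteins nor assembly of an inflammasome.

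In the textbook scheme, a sensor meets its trigger, which is cytosolic double-stranded DNA for AIM2, membrane damage and ion flux for NLRP3, bacterial proteases and loss of DPP9 restraint for NLRP1B, and flagellin or secretion system proteins bound by NAIPs for NLRC4. Sensors with a pyrin domain recruit ASC, the product of Pycard, which polymerizes and gathers caspase-1. Caspase-1 then cleaves pro-IL-1β, pro-IL-18 and gasdermin D, whose released part forms pores in the plasma membrane. Caspase-4, the mouse protein also called caspase-11, binds cytosolic lipopolysaccharide directly and cleaves gasdermin D without a sensor complex.

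On the GRCm38 build the 10 protein-coding genes lay on 7 chromosomes. Aim2 spanned chr1:173350879-173466040 on the plus strand and Pycard chr7:127989708-127993867 on the minus strand. Casp1 (chr9:5298517-5307265) and Casp4 (chr9:5308828-5336783) were neighbours on the plus strand with 1562 bases between them. Nlrp3 (chr11:59541568-59566956, plus) and Nlrp1b (chr11:71153102-71230733, minus) shared chromosome 11, and Il18 (chr9:50554827-50581840, plus) shared chromosome 9 with the caspases. The remaining genes were Nlrc4 (chr17:74425438-74459142, minus), Gsdmd (chr15:75862327-75867408, plus) and Il1b (chr2:129364570-129371139, minus). Exons of Pycard overlapped those of the antisense gene Gm45205, with 10.33% of the 100-base stretches of the Pycard transcripts also found in that gene. Il1b overlapped the antisense gene Il1bos. The kit kept strand, but no source used here gives the strand setting of the counting, which makes the Pycard and Il1b values uncertain to that extent. Nlrp1b shared 0.05% of its 100-base stretches with its paralog Nlrp1a.

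Promoter sequence is shown for the members with the main differences, Aim2, Pycard, Nlrp1b and Casp1, from 250 to 34 bases before the transcription start (RefSeq, GRCm38.p6, written 5′ to 3′ on the strand of the gene). The windows were chr1:173420354-173420570 for Aim2, chr7:127993901-127994117 for Pycard, chr11:71230767-71230983 for Nlrp1b and chr9:5298267-5298483 for Casp1, and the Pycard window lay over an exon of Gm45205. Capitals mark GAGGAAGT, a binding sequence of PU.1, the ETS factor of the myeloid lineage, on either strand.
Aim2: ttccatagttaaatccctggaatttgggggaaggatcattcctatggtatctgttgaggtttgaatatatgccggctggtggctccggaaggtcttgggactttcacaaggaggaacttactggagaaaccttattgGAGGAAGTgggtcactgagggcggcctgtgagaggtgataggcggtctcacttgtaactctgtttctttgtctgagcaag
Pycard: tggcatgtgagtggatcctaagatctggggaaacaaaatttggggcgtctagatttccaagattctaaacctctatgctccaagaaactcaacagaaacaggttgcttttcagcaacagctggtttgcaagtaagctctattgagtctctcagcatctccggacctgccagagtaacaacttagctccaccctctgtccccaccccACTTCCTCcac
Nlrp1b: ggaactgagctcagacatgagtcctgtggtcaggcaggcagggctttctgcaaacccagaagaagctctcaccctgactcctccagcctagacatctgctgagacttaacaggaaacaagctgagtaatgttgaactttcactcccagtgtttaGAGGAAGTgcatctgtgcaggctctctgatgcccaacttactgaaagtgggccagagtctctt
Casp1: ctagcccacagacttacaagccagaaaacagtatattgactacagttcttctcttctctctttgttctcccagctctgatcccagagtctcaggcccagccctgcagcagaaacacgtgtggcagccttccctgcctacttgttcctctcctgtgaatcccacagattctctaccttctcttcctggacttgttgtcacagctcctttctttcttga
The PU.1 sequence stood 113 to 106 bases before the Aim2 start, 96 to 89 before the Nlrp1b start and, as its reverse complement, 44 to 37 before the Pycard start. That Aim2 start lay inside the gene span given above and not at its first base. Of the 12 windows of the 9 members with an entry, 3 held it, compared with 1.99% of all 32851 windows of this length. Casp4, Nlrp3 and Nlrp1b had a second start each, the second Nlrp1b window (chr11:71201490-71201706) did not hold the sequence, and Gsdmd had no entry. The other motifs searched on both strands were the interferon-stimulated response element, an NF-kB sequence, the ETS-IRF composite element and the gamma-activated site TTCNNNGAA. They were present in 2.6%, 0.335%, 1.98% and 6.2% of all windows and in no member window. These matches describe letters and not factor binding, and the motifs were chosen with earlier results of these data known.

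Total expected counts were 43070361 to 61383806 per library in Con and Van and 170503470 to 184720704 in VanLip. The commonest low count also differed, at 1.33 in Con and Van and 2.00 in VanLip. These values correspond to reads of 100 and 150 bases if the authors' conversion tool, tximport, kept its default of 75 bases. The study states reads of 100 bases for all libraries, so the value for VanLip departs from that statement, and whether these libraries were sequenced separately is not given in the sources used here. Group, depth and read length therefore cannot be told apart in either comparison with VanLip. The labelled cell type was checked against marker genes: 6 pan-monocyte markers summed to 7887 to 10556 FPKM per library, with Lyz2 the highest, while 6 B cell markers summed to 8.35 to 12.4, 6 natural killer cell markers to 0.348 to 0.964 and 8 neutrophil markers to 13.6 to 37.2. Other splenic cells were present, with 6 red pulp macrophage markers at 852 to 1056 FPKM in Con, 1076 to 1380 in Van and 822 to 1158 in VanLip, and 6 erythroid markers at 57.1 to 115, 189 to 431 and 155 to 642. None of the 68 markers was at 0 in all libraries. In bulk RNA, fewer cells of a type and less RNA per cell cannot be told apart.

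**Figure D1:**
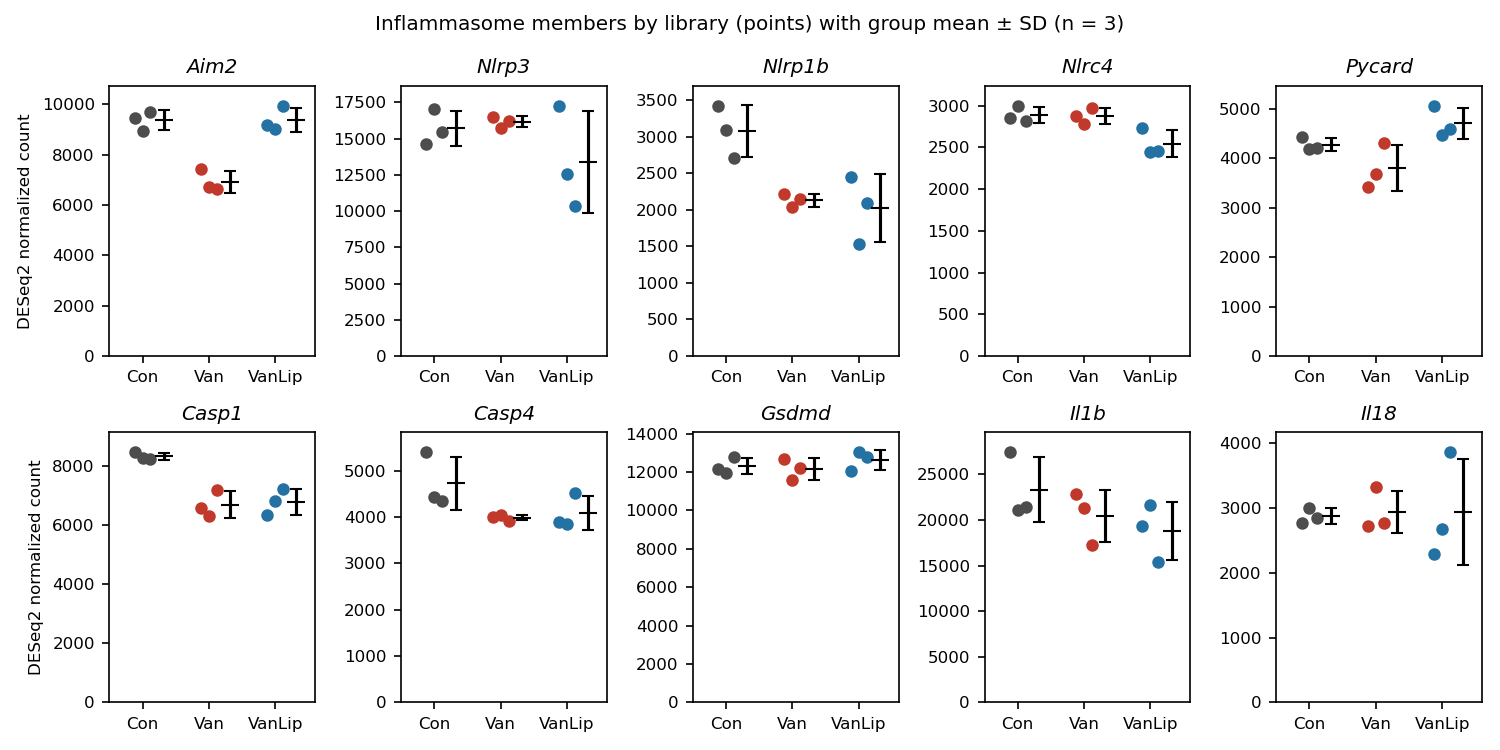
Normalized counts of the 10 inflammasome genes in each of the 9 libraries, 1 panel per gene with a linear axis from 0; points are libraries, and bars give the mean and SD of each group (n = 3). Aim2 lies at 6639 to 7432 in Van and at 8946 or more in Con and VanLip, and Casp1 lies at 8225 or more in Con and at 7220 or less in the other groups.

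Aim2 was lower in Van than in both other groups. Its normalized counts were 9471, 8946 and 9717 in the Con libraries, 7432, 6712 and 6639 in Van, and 9192, 9040 and 9936 in VanLip. The 3 Van libraries were thus the lowest of the 9, and the Con and VanLip ranges overlapped. Across all genes tested, 10.3% had every Van library below every Con library and 13.1% had every VanLip library above every Van library. Group means were 9378 ± 394, 6928 ± 438 and 9389 ± 479 (SD, n = 3 each), so that Van was 26.1% below Con and VanLip 35.5% above Van. The log2 fold changes were -0.44 for Van versus Con, 0.00 for VanLip versus Con and 0.44 for VanLip versus Van, with 95% intervals of -0.58 to -0.29, -0.14 to 0.15 and 0.29 to 0.59. Because these contrasts led to the choice of Aim2, the intervals describe the spread of the libraries and carry no p, and both contrasts with Van use the same 3 Van libraries. Thinning the VanLip fragments to 20090755 per library gave 0.44 again for VanLip versus Van. Such thinning removes fragments evenly across genes, so it was not expected to move this value and cannot separate group from read length.

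Pycard was lowest on average in Van and highest in VanLip. The Con libraries had 4428, 4180 and 4216 normalized counts, the Van libraries 3426, 3676 and 4312, and the VanLip libraries 5059, 4471 and 4584. One Van library, replicate 3, stood inside the Con range, so that Con and Van overlapped, whereas all VanLip libraries were above all others, as 12.2% of all genes showed against Con and 13.1% against Van. Means were 4275 ± 134, 3804 ± 457 and 4705 ± 312 (SD, n = 3 each). The log2 fold change was -0.17 for Van versus Con (95% interval -0.36 to 0.03), 0.14 for VanLip versus Con (-0.06 to 0.33) and 0.31 for VanLip versus Van (0.11 to 0.50). On leaving out 1 library it ran from -0.27 to -0.10 for Van versus Con (without Van replicate 3 and Van replicate 1) and from 0.08 to 0.17 for VanLip versus Con (without VanLip replicate 1 and VanLip replicate 2). For VanLip versus Van it ranged from 0.24 without Van replicate 1 to 0.41 without Van replicate 3.

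Among the 8 members with a test, DESeq2 called 2 for Van versus Con, Casp1 and Nlrp1b, both lower in Van, where 4.33% of all genes tested were called and 2.06% were called lower. The same genes were called lower in VanLip than in Con, where 6.67% of all genes were called and 3.69% were called lower. Of all calls in that comparison 44.7% were higher in VanLip, against 56.8% with TMM library sizes. These comparisons share the Con libraries. For VanLip versus Van, DESeq2 called 0 of the 8 members against 9.85% of all genes, with 1 member, Nlrc4, at an unadjusted p under 0.05 compared with 15.5% of all genes. The median log2 fold change over the 8 members was -0.10 for Van versus Con, -0.22 for VanLip versus Con and -0.04 for VanLip versus Van, beside -0.01, 0.01 and 0.01 over all genes. The edgeR quasi-likelihood test and limma on FPKM called 0 of the 8 members in each comparison. How many of all genes these tests called is not given here. At an unadjusted p under 0.05, DESeq2 had 3 members for Van versus Con and 5 for VanLip versus Con, where the shares over all genes were 11.1% and 13%.

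**Figure D2:**
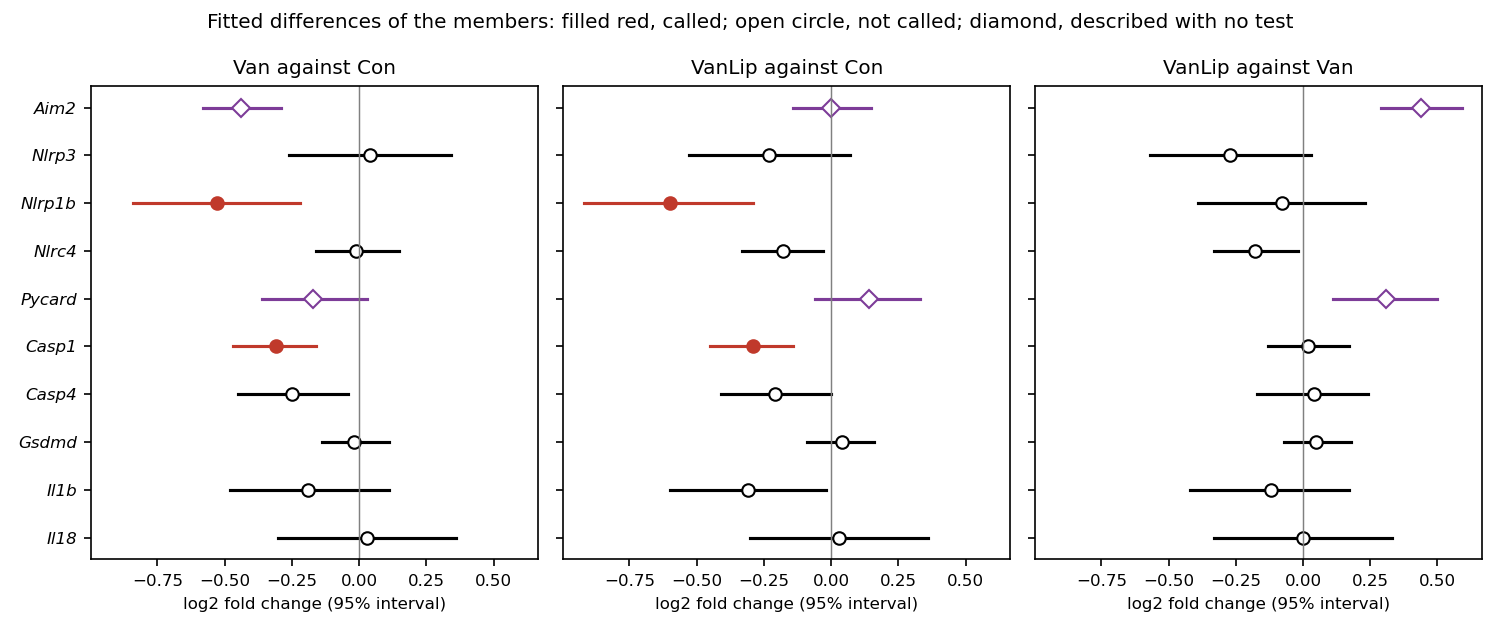
Log2 fold changes of the 10 genes in the 3 comparisons, with 95% intervals from the DESeq2 fit of all 9 libraries; filled points had an adjusted p no higher than 0.05, and Aim2 and Pycard were drawn without a test. Casp1 and Nlrp1b lie below 0 against Con in both Van and VanLip, and their intervals for VanLip versus Van include 0.

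Casp1, the protease shared by the canonical inflammasomes, was lower in both vancomycin groups. It had 8451, 8278 and 8225 normalized counts in Con, 6569, 6313 and 7180 in Van, and 6324, 6802 and 7220 in VanLip. The 6 libraries from vancomycin-treated mice were all below the 3 Con libraries, which lay close together (8318 ± 118). Van and VanLip overlapped (6688 ± 445 and 6782 ± 449, SD, n = 3 each). VanLip lay below Con without overlap in 11.3% of all genes. The log2 fold change was -0.31 for Van versus Con and -0.29 for VanLip versus Con (SE 0.08 each, DESeq2 adjusted p = 0.00357 and 0.0052). For VanLip versus Van it was 0.02 with an interval of -0.13 to 0.17 (DESeq2 adjusted p = 0.94). Over 19 alternatives the adjusted p ranged from 0.000652 to 0.145 for Van versus Con and from 0.00123 to 0.0953 for VanLip versus Con, and 14 of them kept the call in each. The call was lost without Van replicate 2 in the first comparison, without Con replicate 1 in the second, and in both under edgeR (adjusted p = 0.0657 and 0.0723) and limma.

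Casp4, encoded beside Casp1, had 5393, 4426 and 4356 normalized counts in Con, 4004, 4035 and 3922 in Van, and 3898, 3855 and 4517 in VanLip. All Van libraries were below all Con libraries, which 10.3% of all genes also showed, and Con replicate 1 stood well above the other libraries. The difference did not pass the test, at a log2 fold change of -0.25 for Van versus Con and -0.21 for VanLip versus Con (DESeq2 adjusted p = 0.203 and 0.256). Without Con replicate 1 these values were -0.14 and -0.10. VanLip versus Van gave 0.04, with an interval of -0.17 to 0.24.

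Nlrp1b, the sensor of bacterial proteases, had the largest fitted difference among the members. Normalized counts were 3420, 3087 and 2713 in Con, 2214, 2038 and 2144 in Van, and 2444, 1526 and 2096 in VanLip. Every vancomycin-treated library was below every Con library, and VanLip spread more widely than Van. With means of 3074 ± 354, 2132 ± 88.5 and 2022 ± 464 (SD, n = 3 each), the log2 fold change was -0.53 for Van versus Con and -0.60 for VanLip versus Con (SE 0.16 each, DESeq2 adjusted p = 0.0278 and 0.0051). VanLip versus Van gave -0.08, with an interval of -0.39 to 0.23. The call for Van versus Con was kept in 11 of 19 alternatives, with adjusted p from 5.52e-05 to 0.30, and was lost without Con replicate 1, Con replicate 2, Van replicate 2 or Van replicate 3. For VanLip versus Con 14 of 19 kept it, with adjusted p from 2.53e-05 to 0.159, and it was lost without Con replicate 1. Under edgeR the adjusted p for Nlrp1b was 0.137 and 0.0837. Thinning the VanLip fragments gave -0.62 for Nlrp1b and -0.30 for Casp1 against Con, with DESeq2 adjusted p of 0.00261 and 0.00607.

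Erythroid markers also differed between the groups. Hba-a1, Hbb-bs and Alas2 were called higher in Van than in Con, and all 6 erythroid markers were called higher in VanLip than in Con, while the sums in both vancomycin groups were above every Con library. The dendritic cell markers Xcr1, Clec9a and Siglech were called lower in Van than in Con, at log2 fold changes of -0.85, -1.12 and -0.89, although the 6 dendritic cell markers together summed to 69.2 to 79.9 FPKM in Con, 73.5 to 82.1 in Van and 80.9 to 102 in VanLip. Xcr1 was also called lower in VanLip than in Con, at -0.73. Clec9a and Siglech were called higher in VanLip than in Van, at 0.67 and 0.85, the direction in which Aim2 differed. Called classical monocyte markers did not move together, since for Van versus Con the chemokine receptor Ccr2 was lower at -0.83 and Vcan higher at 1.54. For VanLip versus Van, Ccr2 was called higher at 1.04 and Ly6c2 at 0.39. Cx3cr1 was the only one of 6 nonclassical markers called, at 0.43 for VanLip versus Van, and those 6 summed to 2155 to 2447 FPKM in Con, 2132 to 2877 in Van and 2097 to 2736 in VanLip. The 6 classical markers summed to 875 to 1127, 784 to 1412 and 1161 to 1871 FPKM. Of the 6 red pulp macrophage markers only Vcam1 was called, at 0.46 for Van versus Con and -0.50 for VanLip versus Van. Those are the directions of Panx1 below. Mean FPKM of Cd5l was higher in VanLip than in Van (87.4 and 82.9), and that of the other red pulp macrophage markers was lower. Among the 8 neutrophil markers, Retnlg was called lower in Van than in Con at -2.60 and Ngp lower in VanLip than in Con at -1.94. The neutrophil sums overlapped between the groups, at 21.8 to 25.3 FPKM in Con, 13.6 to 33.6 in Van and 20.7 to 37.2 in VanLip, and the most abundant of these markers, Mmp8, had means of 14.4, 20.5 and 23.3 FPKM. These markers were named after their values were seen, and the part of other cells in the inflammasome and pathway values was not tested.

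The other sensors gave no call with all 9 libraries. Nlrp3 had 14647, 17020 and 15478 normalized counts in Con, 16481, 15752 and 16247 in Van, and 17257, 12591 and 10346 in VanLip. VanLip thus held both the highest and the lowest of the 9 libraries, at 13398 ± 3525 (SD, n = 3). The log2 fold change was -0.23 for VanLip versus Con and -0.27 for VanLip versus Van (DESeq2 adjusted p = 0.438 and 0.302). Without VanLip replicate 1 they were -0.45 and -0.50 and passed the threshold (DESeq2 adjusted p = 0.00049 and 6.1e-05), and without VanLip replicate 3 they were -0.07 and -0.12 (DESeq2 adjusted p = 0.816 and 0.676). Between Van and Con the log2 fold change was 0.04, with an interval of -0.26 to 0.34.

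Nlrc4 had 2855, 2997 and 2812 normalized counts in Con, 2875, 2777 and 2971 in Van, and 2728, 2447 and 2459 in VanLip. All VanLip libraries were below the other 6, without passing the test, at a log2 fold change of -0.18 against each group (DESeq2 adjusted p = 0.146 against Con and 0.141 against Van). For VanLip versus Van 12.8% of all genes had all VanLip libraries lower.

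Gsdmd, the pore-forming substrate of both caspases, varied least. Its normalized counts were 12169, 11964 and 12788 in Con, 12707, 11571 and 12234 in Van, and 12067, 13020 and 12805 in VanLip. The groups overlapped throughout, and the intervals of the log2 fold change were -0.14 to 0.11 for Van versus Con, -0.09 to 0.16 for VanLip versus Con and -0.07 to 0.18 for VanLip versus Van. The interval for Van versus Con leaves out a change as large as that of Casp1.

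The cytokine genes gave no call either. Il1b had 27406, 21069 and 21461 normalized counts in Con, 22823, 21283 and 17314 in Van, and 19355, 21694 and 15360 in VanLip. Con replicate 1 was the highest and VanLip replicate 3 the lowest, with overlap between all groups, and the log2 fold change was -0.19 for Van versus Con and -0.31 for VanLip versus Con (DESeq2 adjusted p = 0.653 and 0.231). Without Con replicate 1 these Il1b values were -0.06 and -0.18, without Van replicate 3 the first was -0.08, and without VanLip replicate 3 the second was -0.18. Il18 had 2773, 3010 and 2856 normalized counts in Con, 2729, 3323 and 2774 in Van, and 2298, 2674 and 3861 in VanLip. VanLip again included the lowest and the highest library, and the log2 fold changes were 0.03, 0.03 and 0.00 in the 3 comparisons, with an interval of -0.33 to 0.33 for VanLip versus Van.

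**Figure D3:**
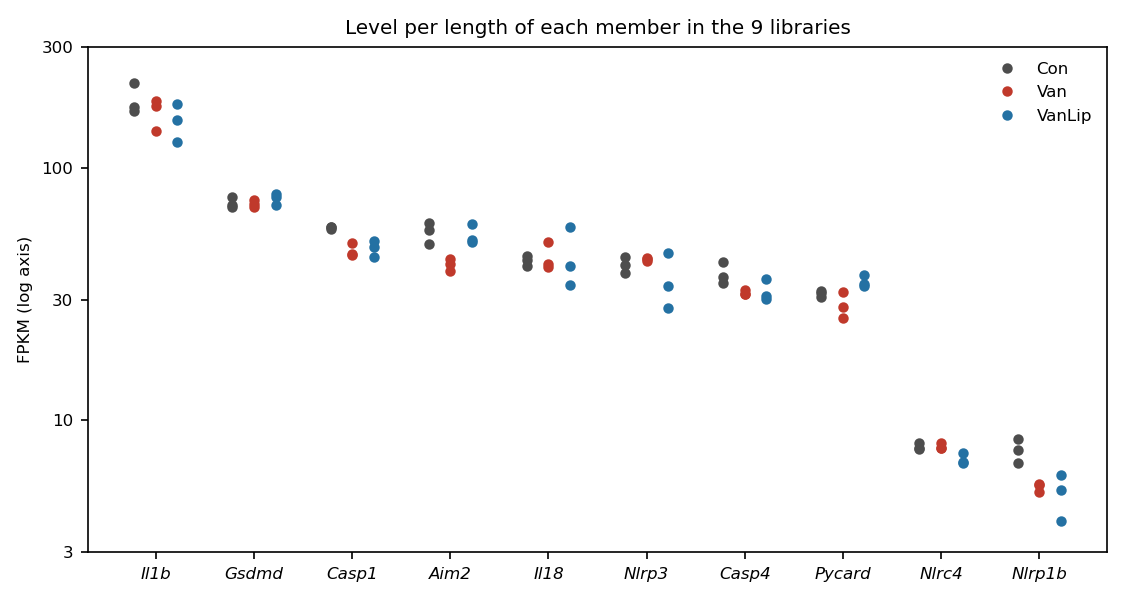
FPKM of the 10 genes in Con, Van and VanLip on a log axis, with 1 point per library (n = 3 per group), ordered by the Con mean. Il1b is the highest gene in each group, and Nlrc4 and Nlrp1b lie below 10 FPKM in every library.

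Compared per length, in FPKM, the substrates Il1b and Gsdmd came first and the sensors Nlrc4 and Nlrp1b last in every group. In Con the order of mean FPKM was Il1b (185.9 ± 26.5), Gsdmd (72.35 ± 3.47), Casp1 (57.99 ± 0.536), Aim2 (55.59 ± 5.28), Il18 (42.82 ± 1.84), Nlrp3 (41.39 ± 3.01), Casp4 (37.99 ± 3.90), Pycard (31.76 ± 0.856), Nlrc4 (7.852 ± 0.22) and Nlrp1b (7.628 ± 0.834; SD, n = 3 each). Libraries overlapped between the neighbours Casp1 and Aim2, Il18 and Nlrp3, Nlrp3 and Casp4, and Nlrc4 and Nlrp1b, and were separate for the other neighbours. Aim2 was thus the highest of the 4 sensor genes in Con. In Van it had 43.37, 39.09 and 41.62 FPKM, which gave its mean rank 6, below Nlrp3 at 42.75 to 43.84 with overlapping libraries. In VanLip it had 51.53, 50.70 and 59.69 FPKM and its mean had rank 3, above every Nlrp3 library, which reached 45.91. Pycard had 32.58, 30.87 and 31.81 FPKM in Con, 25.35, 28.02 and 32.10 in Van, and 37.60, 34.02 and 34.55 in VanLip, and overlapped Casp4 in Van and VanLip but not in Con.

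The rest of the pathway was read from a list of 40 genes that was not picked for how they moved, although earlier results of these data were known. All 40 had counts, and 8 had a mean under 1 FPKM. For Van versus Con, DESeq2 called 2 higher and 4 lower of the 39 with an adjusted p, for VanLip versus Con 0 higher and 3 lower of 38, and for VanLip versus Van 2 higher and 2 lower of 38. The shares over all genes were 2.27% higher and 2.06% lower, 2.98% and 3.69%, and 4.58% and 5.27%. With TMM library sizes the share of calls that were higher in VanLip than in Van went from 46.5% to 55.6%. The medians of the log2 fold change over the list were -0.09, -0.13 and -0.04. By role, none of the 11 other sensors was called in any comparison by DESeq2 with all 9 libraries. Of these sensors, 10, 9 and 9 had an adjusted p and could be called. At an unadjusted p under 0.05 DESeq2 had 2, 4 and 1 of them, beside 11.1%, 13% and 15.5% of all genes. None was called by edgeR. Zbp1, a sensor of Z-form nucleic acids, was called for Van versus Con with only those 2 groups fitted or without Con replicate 2, VanLip replicate 1 or VanLip replicate 3. Without VanLip replicate 1, Naip1 and Mefv were called in both comparisons with VanLip and Zbp1 in that with Van, and without VanLip replicate 3 Mefv was called in both. Among 5 activation partners, 1 was called in each comparison. Of 8 restraints and decoys, 1 was called for Van versus Con. The 9 further cell death effectors had 2 calls for Van versus Con, 0 for VanLip versus Con, with 2 at an unadjusted p under 0.05 and none by edgeR, and 3 for VanLip versus Van. For VanLip versus Con, Ninj1 was called without Con replicate 1 or VanLip replicate 1, and Casp12 without VanLip replicate 3. Of the 7 other ligands and receptors of the IL-1 family, 2 were called lower in each comparison with Con.

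Gsdme, a gasdermin opened by caspase-3 and listed as Dfna5 in the tables, had 1056, 1066 and 905.6 normalized counts in Con, 671.5, 707.6 and 708.7 in Van, and 974.2, 867.4 and 831.4 in VanLip. The Van libraries were the lowest of the 9, as for Aim2. The log2 fold change was -0.54 for Van versus Con and 0.36 for VanLip versus Van (DESeq2 adjusted p = 0.000583 and 0.0266), and the first held under edgeR (adjusted p = 0.0429) but not under limma (adjusted p up to 0.109), while the second did not (0.0703). The second was kept in 8 of 19 alternatives and was also lost under limma, with fragments, with the replicate block and without Van replicate 1, 2 or 3 or VanLip replicate 1 or 2. Mlkl, the pore-forming protein of necroptosis, had 1320, 1246 and 1370 normalized counts in Con, 899.7, 919.4 and 1013 in Van, and 1501, 1122 and 1513 in VanLip. It too was lowest in Van, at -0.47 for Van versus Con and 0.55 for VanLip versus Van (DESeq2 adjusted p = 0.0191 and 0.0015). Under edgeR the adjusted p was 0.102 and 0.0288. With limma the first call was lost in all 3 settings. The second was lost with pseudocounts of 1 or 0.1 over all genes (limma adjusted p up to 0.0866). The Van versus Con call of Mlkl was lost without Con replicate 1, Con replicate 3, Van replicate 1 or Van replicate 2.

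Panx1, a membrane channel that releases ATP, went the other way. It had 2432, 2133 and 2093 normalized counts in Con, 2679, 3213 and 3015 in Van, and 1799, 1867 and 1989 in VanLip, with no overlap between any groups. For Van versus Con, 10.4% of all genes had every Van library higher. The log2 fold change was 0.42 for Van versus Con and -0.65 for VanLip versus Van (DESeq2 adjusted p = 0.00275 and 8.85e-09). VanLip versus Van was called in all 19 alternatives, including edgeR (adjusted p = 0.00375) and limma, whereas Van versus Con was lost under edgeR (0.0569), limma, and when either Con replicate 3 or Van replicate 2 was left out. Dpp9, the peptidase that restrains NLRP1B, rose from 4796 ± 37.8 normalized counts in Con to 5476 ± 77.7 in Van (SD, n = 3 each). This change was 0.19 on the log2 scale (DESeq2 adjusted p = 0.0124). The call was lost under edgeR and limma, with the replicate block (DESeq2 adjusted p = 0.141) and on leaving out any 1 Con or Van library. Ninj1, which ruptures the membrane in the last step of lytic death, had 13001, 12067 and 11299 normalized counts in Van and 10343, 7544 and 8625 in VanLip, a log2 fold change of -0.46 (DESeq2 adjusted p = 0.0166). Its call was lost under edgeR (0.0924), under limma, and on leaving out VanLip replicate 2 or Van replicate 1 or 2.

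Il1a, the alarmin of the IL-1 family, had 674.8, 820.6 and 790.6 normalized counts in Con, 548.2, 469.1 and 428.0 in Van, and 428.6, 350.9 and 547.3 in VanLip. Every vancomycin-treated library was below the Con libraries, as for Casp1 and Nlrp1b. The log2 fold change was -0.66 for Van versus Con and -0.78 for VanLip versus Con (DESeq2 adjusted p = 0.0186 and 0.00141), and edgeR gave 0.11 and 0.0559. Leaving out Con replicate 2, Con replicate 3, Van replicate 2 or Van replicate 3 ended the Van versus Con call of Il1a. Il18r1, a chain of the IL-18 receptor, was also lower in both, at -1.32 and -1.0 (DESeq2 adjusted p = 0.00296 and 0.0303; edgeR 0.0837 and 0.135), from a low level of at most 1.145 FPKM. Over the 19 alternatives these Il18r1 values ran from -1.48 to -0.52 and from -1.39 to -0.34. Its call for VanLip versus Con was lost with thinned VanLip fragments and without Con replicate 2, Con replicate 3, VanLip replicate 1 or VanLip replicate 2. Txnip, which links thioredoxin to NLRP3, was lower in VanLip than in Con at -0.33 (DESeq2 adjusted p = 0.0476) and kept the call in 6 of 19 alternatives, losing it under edgeR and limma, with TMM library sizes, with fragments, whether or not VanLip was thinned, and without any 1 Con library, Van replicate 2, VanLip replicate 1 or VanLip replicate 2. The pyrin sensor gene Mefv, Ninj1 and the NLRC4 partner Naip6 for VanLip versus Con, at -0.39, -0.39 and -0.20, and Brcc3, whose product removes ubiquitin from NLRP3, for VanLip versus Van, at 0.27, had the next lowest p and were not called (DESeq2 adjusted p = 0.053, 0.0685, 0.121 and 0.0563).

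**Figure D4:**
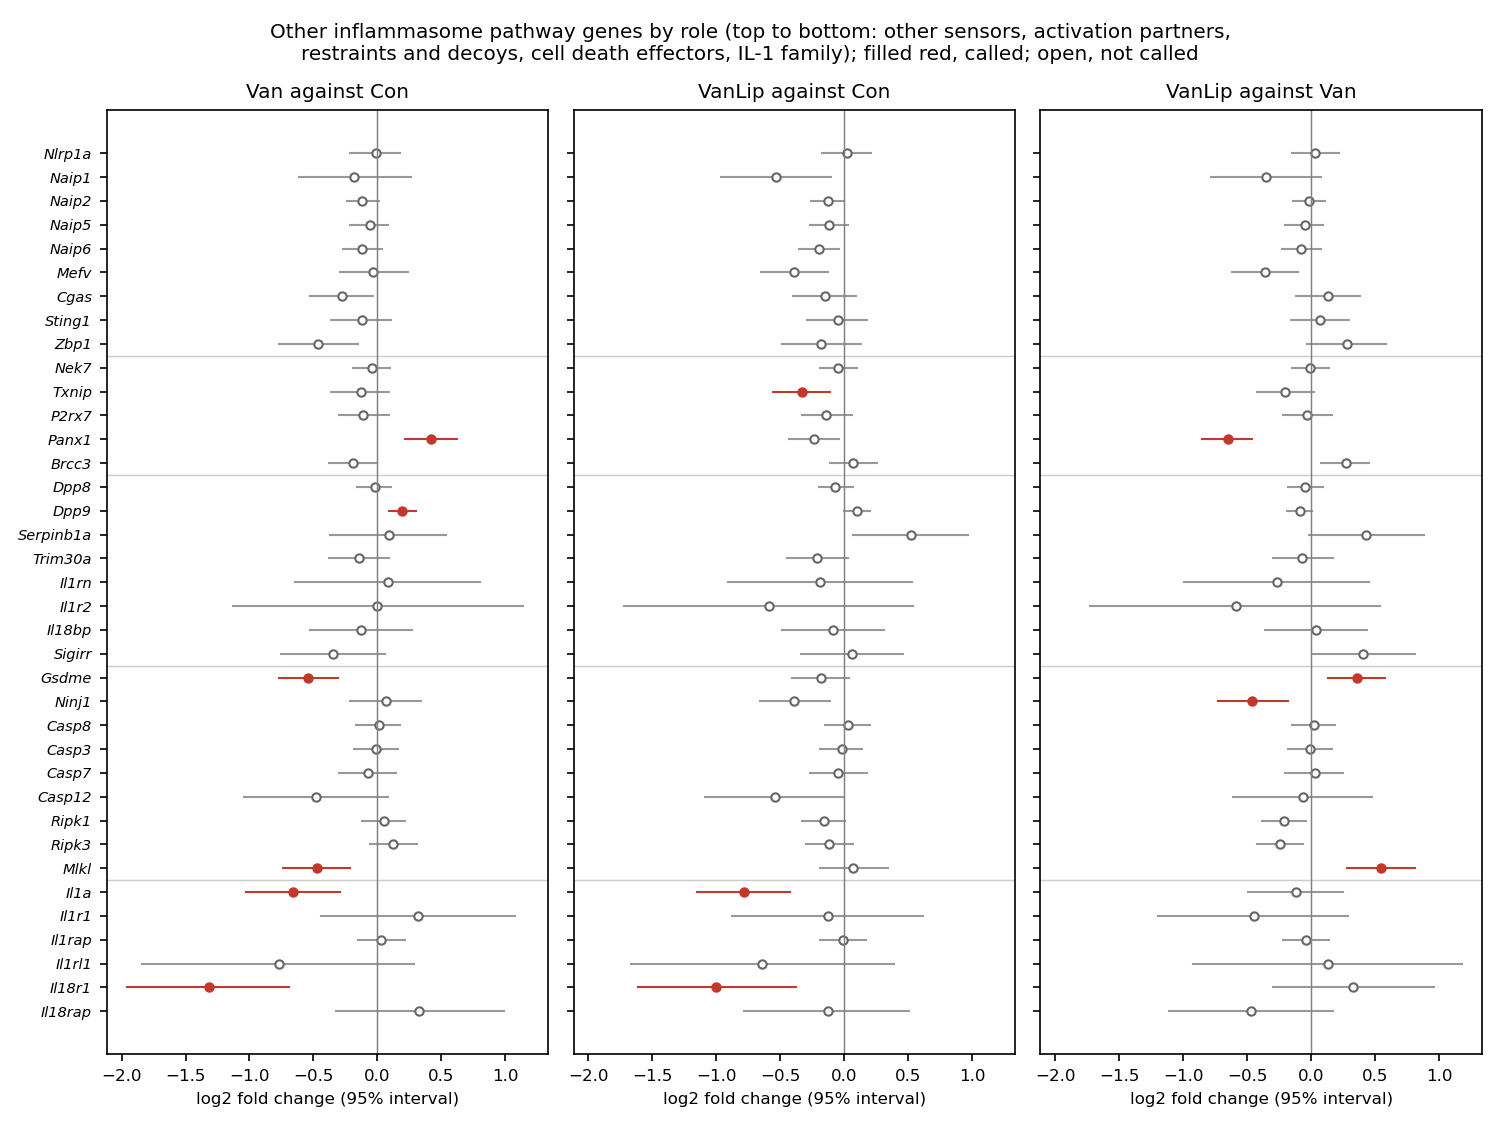
Log2 fold changes with 95% intervals for 37 of the 40 further pathway genes, grouped by role, in the 3 comparisons; 3 genes with a mean under 0.1 FPKM are not drawn, and filled points were called by DESeq2. Panx1 lies above 0 for Van versus Con and below 0 for VanLip versus Van, and Gsdme and Mlkl lie on the opposite sides.

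Over the 9 libraries, the genes outside the member list whose log2 normalized counts followed Aim2 most closely were Gpatch2l, Mtdh, Nt5dc1, Phf11a and Lonp2, with Pearson r from 0.961 to 0.969 among 7794 genes with a mean of at least 5 FPKM. Phf11a, for example, had mean normalized counts of 1392 in Con, 832.5 in Van and 1300 in VanLip. For Pycard they were Arfip1, Tns4, Pex7, Fuz and RP24-80F7.5, with r from 0.935 to 0.944. The points share libraries, group differences and depth, and the genes were taken as the highest of many, so the values are a description.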

How the data were processed

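Polyadenylated RNA of splenic monocytes was sequenced in 9 libraries, 3 each of Con, Van and VanLip by the labels. The authors aligned reads to GRCm38 with HISAT2 2.2.1 and SAMtools 1.9 and computed FPKM with StringTie 2.1.3. They deposited those FPKM and expected counts from tximport. The study does not state the read length set in tximport. Its default of 75 bases was assumed here, under which the counts scale with read length. Total counts per library are given above, and intervals cover the spread of the libraries. Counts were rounded and fitted with DESeq2 1.42.0 in R 4.3.3 over the 26108 genes above 0 in at least 1 library, with group as the only term (two-sided Wald test, Benjamini-Hochberg over all genes, called where the adjusted p was no higher than 0.05). Normalized counts use DESeq2 size factors. Alternatives were edgeR 4.0.16, TMM library sizes, a minimum of 10 counts in 3 libraries, the 2 groups alone, a replicate block, fragments, thinned VanLip fragments, limma 3.58.1 on quantile-normalised log2 (FPKM + 1) or (FPKM + 0.1) or restricted to genes averaging 1 FPKM or more, and fits without each library in turn. Scripts were tested on simulated data. Further pathway genes were named where called or, with fewer than 5 calls, as the 5 of lowest p at a mean of at least 1 FPKM. Likeness used genes of at least 5 FPKM. The members, lists, markers and motifs were chosen with earlier results of these data known. The labels call the libraries biological replicates, and the study gives 3 mice per group.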

Additional observations from a re-analysis of the deposited data

How the results depend on the processing

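Numbers of calls depended on the test. The share of all genes called under edgeR, limma or with 1 library left out is not given here. Lower or higher counts under those settings are therefore not a result about these genes. Of the 8 tested members, edgeR and limma in all 3 FPKM settings called 0 for Van versus Con and 0 for VanLip versus Con, compared with 2 and 2. Leaving out 1 library gave 0 to 2, 0 to 3 and 0 to 1 members in the comparisons Van versus Con, VanLip versus Con and VanLip versus Van, with 0 without Van replicate 2 in the first, 0 without Con replicate 1 in the second and 1, Nlrp3, without VanLip replicate 1 in the third. Of the 40 other pathway genes, edgeR called 1, 0 and 2, limma called 0, 0 and 1 with pseudocounts of 1 or 0.1 and 0, 1 and 2 at a mean FPKM of at least 1, and thinned VanLip fragments left 1 for VanLip versus Con, compared with 6, 3 and 4. Leaving out 1 library gave 2 to 7, 1 to 7 and 2 to 7, with 2 without Con replicate 3 or Van replicate 2 in the first, 7 without VanLip replicate 3 and 5 without VanLip replicate 1 in the second, and 7 without either of these in the third. Fewer libraries enter those fits; otherwise the cause was not tested.

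With a replicate block the members called were 2, 2 and 0, and the other pathway genes 5, 3 and 3. The deviations of same-numbered libraries correlated between -0.06 and 0.12 across genes. Differently numbered libraries were not compared, so whether the replicate numbers mark a pairing was not tested.

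Aim2 kept its sign in all 19 alternatives for Van versus Con (-0.49 to -0.41) and VanLip versus Van (0.34 to 0.49), and Pycard in all 3 comparisons. Both genes were chosen on these contrasts and the alternatives refit the same libraries, so a kept sign is only a description. Leaving out a VanLip library could hardly move Aim2 for Van versus Con, which stayed at -0.44. For VanLip versus Con, Aim2 ran from -0.09 to 0.03.

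Reversals concerned values that were not called. For VanLip versus Van, Il18 went from 0.00 to -0.05 under limma in 3 settings, -0.02 with the block or thinned, -0.00 with the filter of 10 counts, and -0.24 to 0.15 on leaving out 1 library. Casp4 was -0.00 under limma in 3 settings and ran from -0.04 to 0.08 on leaving out 1 library. Casp1 was -0.00 under limma with a pseudocount of 0.1 and, on leaving out 1 library, ran from -0.03 to 0.08, with -0.02 without Van replicate 2. Nlrp1b was 0.09 without VanLip replicate 2, and Il1b 0.00 without VanLip replicate 3. Il18 for VanLip versus Con was -0.03 under limma in 3 settings and ran from -0.21 to 0.18 on leaving out 1 library. For Van versus Con, leaving out 1 library gave -0.01 for Nlrp3, 0.02 for Nlrc4, 0.01 and 0.02 for Gsdmd and -0.06 to 0.08 for Il18, and Il18 for VanLip versus Van was -0.05 without Van replicate 1 and -0.04 without Van replicate 3. For limma, the block and the filter the cause was not tested.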
